A study of Mus musculus with 46 samples.

Results

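The effect of removing Cgas in addition to Arid1a was followed in untreated cultures of B16F10, a mouse melanoma line. All genes were compared between 2 libraries labelled Cgas dKO, with the genotype sgArid1a/sgCgas, and 2 libraries labelled sgArid1a, so that 4 of the 46 samples of the series enter the main comparison. The remaining libraries of the same deposited table were 2 labelled Sting dKO, with the genotype sgArid1a/sgSting, and 2 labelled sgScramble, which carry a control guide. Guides against Arid1a are therefore shared by every group except sgScramble. Whether a line is a clone or a pool, and whether the 2 libraries of a group come from separate cultures, is not stated, so p-values measure only the spread between these libraries, which may be technical. The titles name B16F10 for all groups, while the cell line field of the Cgas dKO samples reads B16F11 and B16F12. That field also departs from B16F10 in the Sting dKO samples. PolyA RNA was sequenced, and the table gives log2 values, normalized by the authors, for 24537 genes. Of these, 11604 genes were tested, those whose log2 values average 4 or more over the 8 libraries.

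Cgas is an enzyme that binds DNA in the cytosol and makes the messenger cGAMP. cGAMP activates the membrane protein Sting, which recruits the kinase Tbk1 to phosphorylate Irf3, and Irf3 turns on type I interferon genes. Secreted interferon then binds its receptor (Ifnar1 and Ifnar2), and a complex that contains Irf9 binds the interferon-stimulated response element in front of antiviral genes. Arid1a encodes a large subunit that helps a nucleosome remodeller of the SWI/SNF type bind DNA. The comparison asked which of the genes expressed in sgArid1a melanoma cells change when the sensor Cgas is targeted as well.

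The transcripts of the targeted genes did not follow the double-knockout labels. Arid1a (mm10 chromosome 4, 133679008 to 133753611, minus strand) had log2 values of 11.03 and 10.74 in the libraries labelled Cgas dKO, against 10.43 and 10.39 in those labelled sgArid1a, and sgScramble libraries had 10.90 and 11.08. It was thus higher with the Cgas dKO label by 0.47 ± 0.11 (SE, n = 2 per group, limma adjusted p = 0.00596), a call that ended without Cgas dKO replicate 1 (adjusted p = 0.133) and without sgArid1a replicate 2 (adjusted p = 0.0593). With the trend of fold changes over transcript length removed the difference was 0.23 and the call also ended (adjusted p = 0.1). Cgas, listed under its older symbol Mb21d1 (chromosome 9), had 8.03 and 7.98 with the Cgas dKO label and 8.06 and 7.96 with the sgArid1a label (adjusted p = 0.989). A guide can disrupt a protein and leave its transcript, so transcript levels check these labels only in part. Markers of other cells were low: 4 of 12 macrophage, 7 of 12 lymphocyte, 7 of 12 epithelial or endothelial and 5 of 12 fibroblast or muscle markers were at 0 in all 8 libraries, among them Ptprc, Cd3e, Krt8 and Dcn. Summed on the linear scale (2 to the power of the log2 value), the fibroblast and muscle markers came to 107 and 88.5 with the Cgas dKO label and 151 and 141 with the sgArid1a label, mostly through Pdgfra; their part in the results was not tested. The macrophage markers summed to 44 and 43.1 with the Cgas dKO label and to 45.7 and 43 with the sgArid1a label, and the lymphocyte and epithelial or endothelial sums were also close between the groups. Of these 3 kinds of marker only Cd68 reached the average of 4. The deposited values draw low values together, so close sums cannot show that the groups hold the same cells. Library totals were 15.8 and 13.8 M reads (10 to the power of 6) with the Cgas dKO label and 20.5 and 20.1 M reads with the sgArid1a label. Whether the libraries of the groups were prepared or sequenced together is not stated. In bulk RNA, fewer cells of a type and less RNA per cell cannot be told apart.

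Over all genes the fold changes moved with 2 properties of the transcripts. The first was the share of a gene's 31-mers that also occur in transcripts of a gene at another locus, computed from GENCODE vM21. Genes with no shared 31-mer had a median log2 difference of 0.03 between the libraries labelled Cgas dKO and sgArid1a. Genes with 5 to 20% shared had -0.17, those with 20 to 50% shared -0.61 and those with over 50% shared -1.43. Of the genes with 5 to 20% shared, 34.3% were lower and 4.58% higher, against 9.61% and 12.8% with none shared. Genes with 5 to 20% shared stay in the counts below, so the line at 20% leaves part of the trend in. Transcript length was the second: among genes with under 5% shared, the median was -0.21 for transcripts up to 1 kb and 0.20 for those over 5 kb. Between the libraries labelled Cgas dKO and Sting dKO the medians of the same classes lay within -0.04 and 0.06. Genes with 20% or more shared are therefore described apart, at the end, and counts below are of genes with under 20% shared unless stated otherwise. For each list chosen here, the counts between the libraries labelled Cgas dKO and sgArid1a are also given with the length trend of each library removed where that moved them.

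**Figure D1:**
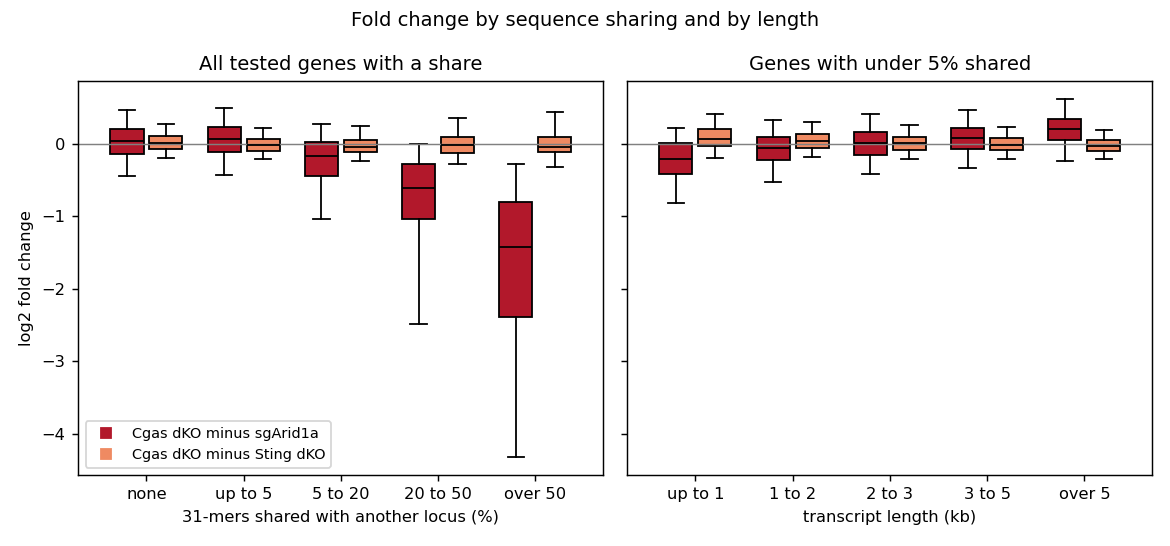
Log2 fold change of the tested genes by the share of 31-mers found at another locus (left, %) and, for genes with under 5% shared, by transcript length (right, kb). Boxes are quartiles with the median, whiskers the 5th and 95th percentiles; the difference between the libraries labelled Cgas dKO and sgArid1a moves with both properties (median -1.43 at over 50% shared), and the difference between those labelled Cgas dKO and Sting dKO stays near 0.

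Between the libraries labelled Cgas dKO and sgArid1a, 3329 of the 11604 tested genes (28.7%) passed an adjusted p of 0.05, 1416 (12.2%) higher and 1913 (16.5%) lower. Among the 10716 genes with under 20% shared, 1403 (13.1%) were higher and 1228 (11.5%) lower, in all 24.6%. These percentages are the background against which each list below is read. With the length trend removed, 961 of the same 10716 genes were higher and 1357 lower, with a median of -0.01. List counts given with that trend removed are read against these numbers. Most changes were small on the deposited scale, which draws low values together and so understates changes of low genes. On it, 19 of the genes with under 20% shared rose and 95 fell by at least 1. Quantile normalization turned the split over all tested genes to 2336 higher and 1527 lower, against 1416 and 1913 as deposited, with the median of all genes at 0.08 in place of 0.01. A fit without 1 of the 4 libraries compared leaves 1 library in a group, which tends to widen the error of each difference. All 4 such fits called fewer genes. A call lost in such a fit therefore does not show that the difference itself moved, and this holds for every fit without a library given here.

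Few genes of the DNA sensing route itself passed the test. Of its 22 tested genes, 2 were higher and 1 was lower, with a median of 0.03 against 0.03 over all genes with under 20% shared, and no call of the list held in all of the 4 fits without a library. With the length trend removed 1 was higher and 0 lower. Tmem173, which encodes Sting, had 9.53 and 9.51 with the Cgas dKO label and 9.47 and 9.51 with the sgArid1a label. The groups overlapped, and the difference was 0.02 ± 0.10 (n = 2 per group, limma adjusted p = 0.879). Rnaseh2c, a subunit of the ribonuclease that clears RNA from DNA, fell by 0.52 ± 0.16 (adjusted p = 0.0327), a call lost with the length trend removed (adjusted p = 0.171). Sec24c, a coat protein of the vesicles that carry cargo out of the endoplasmic reticulum, rose by 0.38 ± 0.09 (adjusted p = 0.00877). The interferon genes Ifnb1, Ifna2, Ifna4 and Ifne were listed at 0 in all 8 libraries, so no change of the ligands themselves was measurable.

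Genes induced by type I interferon were lower. Of 67 listed genes, 47 were tested and 38 of them had under 20% shared; 23 of the 38 fell and 0 rose (median -0.39), against 11.5% lower and a median of 0.03 over all such genes. Ifit1, which binds viral RNA, had 6.85 and 6.97 with the Cgas dKO label and 8.16 and 8.37 with the sgArid1a label. The groups lay more than 1 log2 unit apart, and the sgScramble libraries (7.28 and 7.17) fell between them. Ifit1 fell by 1.35 ± 0.12 (n = 2 per group, limma adjusted p = 1.47e-06); 10.5% of its 31-mers are shared. Isg15, the ubiquitin-like modifier, had 6.06 and 6.01 with the Cgas dKO label and 6.92 and 6.85 with the sgArid1a label. It fell by 0.85 ± 0.10 (adjusted p = 4.08e-05), and 12.8% of its 31-mers are shared. Its levels were also under the sgScramble values of 6.34 and 6.24, a difference that did not pass the test (adjusted p = 0.062). Rsad2 (viperin), which blocks viral replication, had 9.35 and 9.33 with the Cgas dKO label and 9.75 and 9.79 with the sgArid1a label, and fell by 0.43 ± 0.13 (adjusted p = 0.0222). It was still higher by 0.49 than in sgScramble libraries (8.64 and 9.06, adjusted p = 0.0077). Of the other panel genes, Usp18, which removes Isg15 from proteins, fell by 0.41, and Parp14, an ADP-ribosyltransferase, by 0.34; both calls ended in each of the 4 fits without a library and under quantile normalization. The call of Rsad2 also ended in each fit without a library, while its difference stayed at -0.45 to -0.41. Oasl2 was not tested for its low values. Over the whole list, the count of lower genes was 8 without Cgas dKO replicate 1, 15 without Cgas dKO replicate 2, 15 without sgArid1a replicate 1 and 12 without sgArid1a replicate 2, and no gene was called higher in any of these fits. With the length trend removed 26 were lower.

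The letters of the interferon-stimulated response element (GAAA, any 2 bases, GAAA, on either strand) were searched in the 250 bases before the start of each gene (RefSeq, GRCm38.p6). They were found in 16 of the 37 type I interferon-stimulated genes that have such a window (43.2%), against 2.43% of the windows of all tested genes. Within the list they occurred in 6 of 17 genes that fell and in 3 of 11 that were not called, among those with under 20% shared. The last 150 bases before the start are shown for 4 interferon-response genes named in the results, with each match in capitals.
Ifit1 chr19:34640739-34640888 (plus strand): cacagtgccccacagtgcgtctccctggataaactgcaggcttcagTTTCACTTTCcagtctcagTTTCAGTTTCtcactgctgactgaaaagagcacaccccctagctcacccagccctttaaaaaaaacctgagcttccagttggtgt
Isg15 chr4:156200819-156200968 (minus strand): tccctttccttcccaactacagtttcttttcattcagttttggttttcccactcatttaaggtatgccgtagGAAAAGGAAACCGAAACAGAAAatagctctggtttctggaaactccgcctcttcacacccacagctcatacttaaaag
Rsad2 chr12:26456453-26456602 (minus strand): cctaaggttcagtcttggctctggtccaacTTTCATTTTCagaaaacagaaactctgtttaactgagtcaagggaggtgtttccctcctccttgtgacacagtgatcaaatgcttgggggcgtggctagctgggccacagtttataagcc
Irgm1 chr11:48871421-48871570 (minus strand): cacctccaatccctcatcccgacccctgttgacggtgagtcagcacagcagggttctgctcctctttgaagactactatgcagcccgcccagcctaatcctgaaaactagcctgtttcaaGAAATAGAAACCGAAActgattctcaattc
Ifit1 holds 2 separate matches, Isg15 holds 3 that overlap, Irgm1 holds 2 that overlap and Rsad2 holds 1. A match of letters is a description and not a bound site.

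**Figure D2:**
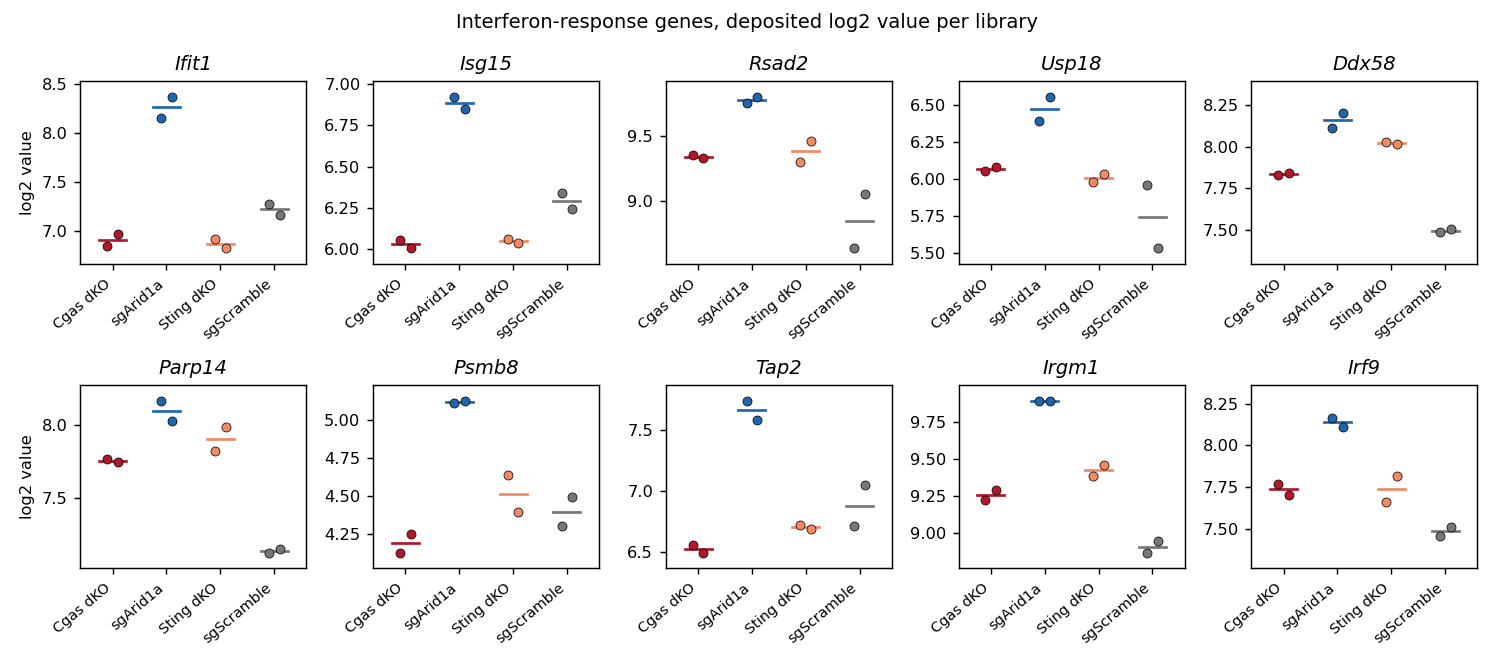
Deposited log2 value of 10 interferon-response genes in each library (points, 2 per group) with the group mean (line), for the groups labelled Cgas dKO, sgArid1a, Sting dKO and sgScramble; each panel has its own axis, which does not start at 0. The Cgas dKO points lie under the sgArid1a points in every panel, with differences of -1.35 in Ifit1 and -0.32 in Ddx58.

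Lower levels extended to genes that interferon-gamma also induces and to antigen presentation. Of 8 tested interferon-gamma-leaning genes, 5 fell and 0 rose (median -0.39), down to 2 lower genes without Cgas dKO replicate 2 or without sgArid1a replicate 2 and to 3 without sgArid1a replicate 1. Irgm1, a GTPase that acts against intracellular pathogens, had 9.22 and 9.29 with the Cgas dKO label and 9.89 and 9.89 with the sgArid1a label, and 8.87 and 8.94 in sgScramble libraries. It fell by 0.64 ± 0.09 relative to sgArid1a (n = 2 per group, limma adjusted p = 0.000229) and was 0.35 higher than in sgScramble (adjusted p = 0.0098). Cd274, the checkpoint ligand PD-L1, fell by 0.44 ± 0.11 (adjusted p = 0.00997), with calls lost without Cgas dKO replicate 2 and without sgArid1a replicate 2. In the class I antigen presentation list, 4 of 11 genes fell and 1 rose (median -0.27), and 3 fell and 0 rose with the length trend removed; in the fits without a library 3 or 4 fell and 0 rose. Tap2, a chain of the transporter that brings peptides into the endoplasmic reticulum, had 6.56 and 6.50 with the Cgas dKO label and 7.73 and 7.58 with the sgArid1a label, and fell by 1.13 ± 0.13 (adjusted p = 1.95e-05). Psmb8, an immunoproteasome subunit, had 4.13 and 4.25 with the Cgas dKO label and 5.11 and 5.12 with the sgArid1a label. It fell by 0.92 ± 0.11 (adjusted p = 2.73e-05). B2m, the light chain of class I molecules, fell by 0.69 (adjusted p = 0.0137), and the transporter partner Tap1 differed by -0.27 without passing the test (adjusted p = 0.135).

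Cytosolic RNA sensors, themselves interferon-induced, were among the lower genes. The background was 11.5% lower, and 24.6% called in either direction. Of 17 tested RNA sensing genes, 4 fell and 0 rose (median -0.11), and 6 fell with the length trend removed. The 4 were Dhx58 (LGP2), lower by 0.58 ± 0.12 (n = 2 per group, limma adjusted p = 0.00374), Ifih1 (MDA5), lower by 0.51, the ubiquitin ligase Trim25, lower by 0.44, and Ddx58 (RIG-I), lower by 0.32. The call of Ddx58 was lost in each fit without a library and under both other scalings, and 1 or 2 genes of the list stayed lower in the fits without a library. Receptor and signalling genes of the interferon pathway gave 6 lower and 0 higher genes of 21 (median -0.06), and 2 or 3 lower genes without any 1 of the 4 libraries and 7 with the length trend removed. Ifngr2, a chain of the interferon-gamma receptor, fell by 0.57 ± 0.10 (adjusted p = 0.000664), Ifnar2 by 0.37 and Irf9 by 0.40. Irf9 had 7.77 and 7.70 with the Cgas dKO label and 8.17 and 8.11 with the sgArid1a label, and its call ended without any 1 of these libraries (adjusted p of 0.0709 to 0.111) and under quantile normalization (adjusted p = 0.0562). In the list of NF-kB and chemokine genes 5 of 13 fell and 0 rose, 2 or 3 fell without any 1 library and 4 fell with the length trend removed. Cxcl10, a chemokine that attracts T cells, had 7.01 and 6.77 with the Cgas dKO label, against 7.76 and 7.71 with the sgArid1a label, and fell by 0.84 ± 0.13 (adjusted p = 0.000318). The deposited table also carries an unlabelled list of 57 gene symbols. Of its 37 tested genes with under 20% shared, 25 fell and 0 rose, and as that list may have been chosen on these samples it is no independent evidence of a direction.

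**Figure D3:**
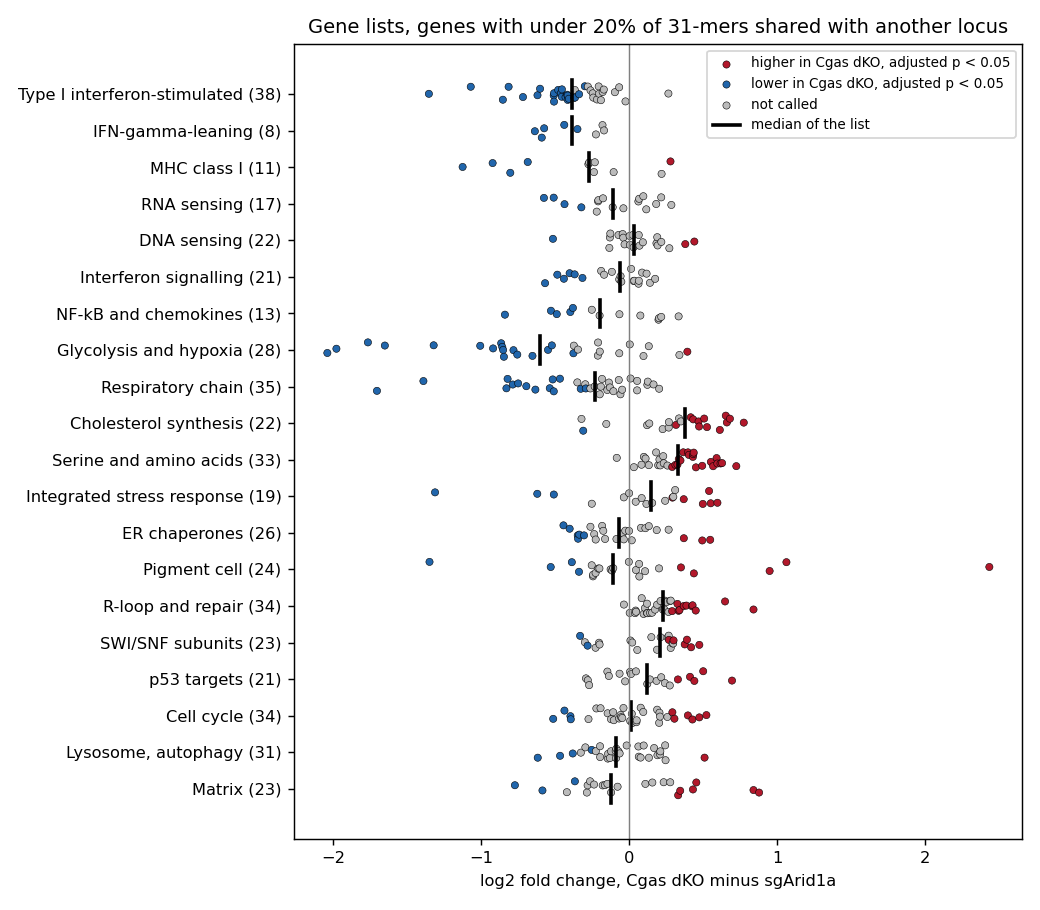
Log2 fold change between the libraries labelled Cgas dKO and sgArid1a for the genes of 20 lists (points, genes with under 20% of 31-mers shared, number in brackets), with the median of each list as a black bar. Red and blue points passed an adjusted p of 0.05; the interferon, antigen presentation and glycolysis lists lie mostly left of 0, the cholesterol, amino acid and repair lists mostly right.

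Glycolytic and hypoxia-induced genes had the most negative median of the lists shown. Of 28 tested genes with under 20% shared, 17 fell and 1 rose (median -0.60), and 15 or 16 fell in the fits without a library and 18 with the length trend removed. Slc16a3, the transporter that exports lactate, had 6.94 and 7.04 with the Cgas dKO label and 9.06 and 9.0 with the sgArid1a label, and 9.27 and 10.17 in sgScramble libraries. It fell by 2.04 ± 0.21 relative to sgArid1a (n = 2 per group, limma adjusted p = 6.95e-06). Pdk1, the kinase that keeps pyruvate out of the mitochondrial cycle, had 8.15 and 7.96 with the Cgas dKO label, against 9.92 and 10.15 with the sgArid1a label, and fell by 1.98 ± 0.12 (adjusted p = 3.48e-08). No library of one group came near the other. The libraries labelled Sting dKO had 6.71 and 6.54 for Slc16a3 and 8.05 and 8.02 for Pdk1. Vegfa, the angiogenic factor, fell by 0.92 ± 0.10 (adjusted p = 1.21e-05), and Slc2a1, the glucose transporter GLUT1, by 0.85 ± 0.11 (adjusted p = 6.94e-05). Levels of Hif1a, the hypoxia-responsive transcription factor, differed by 0.09 ± 0.10 (adjusted p = 0.536). The gene that rose was Pfkfb3, whose product activates glycolysis, by 0.39, a call that ended in each fit without a library and with the length trend removed.

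Sterol synthesis moved the other way. Of 22 tested genes of cholesterol synthesis and uptake, 12 rose and 1 fell (median 0.38), against 13.1% higher over all genes with under 20% shared, and 7 to 11 rose in the fits without a library. The 7 were without sgArid1a replicate 2. With the length trend removed 12 rose and 2 fell. Lss, which closes the sterol ring, had 10.44 and 10.33 with the Cgas dKO label and 9.57 and 9.65 with the sgArid1a label, and 8.76 and 9.01 in sgScramble libraries. It rose by 0.77 ± 0.10 (n = 2 per group, limma adjusted p = 0.000104). Hmgcs1, a synthase early in the sterol pathway, had 11.32 and 11.37 with the Cgas dKO label and 10.75 and 10.72 with the sgArid1a label, a rise of 0.61 ± 0.08 (adjusted p = 0.000123). Insig1, which retains the sterol sensor in the endoplasmic reticulum, fell by 0.31, a call that ended in each fit without a library. Against sgScramble, 21 of the 22 were higher and 1 was lower, with a median of 1.01, beside 21.1% higher over all genes with under 20% shared.

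Most tested genes of serine synthesis, amino acid uptake and transfer RNA charging rose. Of 33 tested, 20 were higher and 0 lower, with a median of 0.33; the count was 10 without Cgas dKO replicate 1, 11 without Cgas dKO replicate 2 and 7 without sgArid1a replicate 2, again with 0 lower. With the length trend removed 17 rose and 0 fell. Slc7a5, the transporter of large neutral amino acids, had 11.72 and 11.71 with the Cgas dKO label and 11.20 and 11.05 with the sgArid1a label, a rise of 0.59 ± 0.09 (n = 2 per group, limma adjusted p = 0.000278). Shmt2, the mitochondrial enzyme that splits serine, had 12.30 and 12.26 with the Cgas dKO label and 11.63 and 11.49 with the sgArid1a label, a rise of 0.72 ± 0.11 (adjusted p = 0.000281). The sgScramble libraries were higher than either in Slc7a5 (12.21 and 12.31). In all, 2 of the 33 were higher and 25 lower in the libraries labelled Cgas dKO than in sgScramble, with a median of -0.51. Over all genes with under 20% shared, 21.1% were higher and 17.6% lower than in sgScramble.

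The integrated stress response, which runs through the transcription factor Atf4, was split. Of its 19 tested genes, 6 rose and 3 fell (median 0.15), and 7 rose and 3 fell with the length trend removed. The count of risers was 3 without Cgas dKO replicate 2, with 3 lower, and 3 without sgArid1a replicate 2, with 4 lower. Asns, asparagine synthetase, had 11.52 and 11.60 with the Cgas dKO label and 11.11 and 11.02 with the sgArid1a label, a rise of 0.50 ± 0.10 (n = 2 per group, limma adjusted p = 0.00216). Nupr1, a small stress-induced nuclear protein, rose by 0.60 ± 0.11 (adjusted p = 0.00142) and Trib3, a pseudokinase, by 0.55 (adjusted p = 0.0154). Atf4 itself rose by 0.29, close to the threshold (adjusted p = 0.0414). Vldlr, a lipoprotein receptor, had 6.65 and 6.40 with the Cgas dKO label, against 7.77 and 7.91 with the sgArid1a label and 9.53 and 9.53 in sgScramble libraries. It fell by 1.31 ± 0.12 (adjusted p = 2.34e-06). Ddit4, an inhibitor of mTOR signalling, fell by 0.62 and Ppp1r15a, which reverses the response, by 0.51. All 19 genes were lower with the Cgas dKO label than in sgScramble libraries, with a median of -1.39, against 17.6% lower over all genes with under 20% shared. The libraries labelled sgArid1a were also under sgScramble, by -3.21 in Nupr1, -1.42 in Asns and -1.69 in Vldlr.

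**Figure D4:**
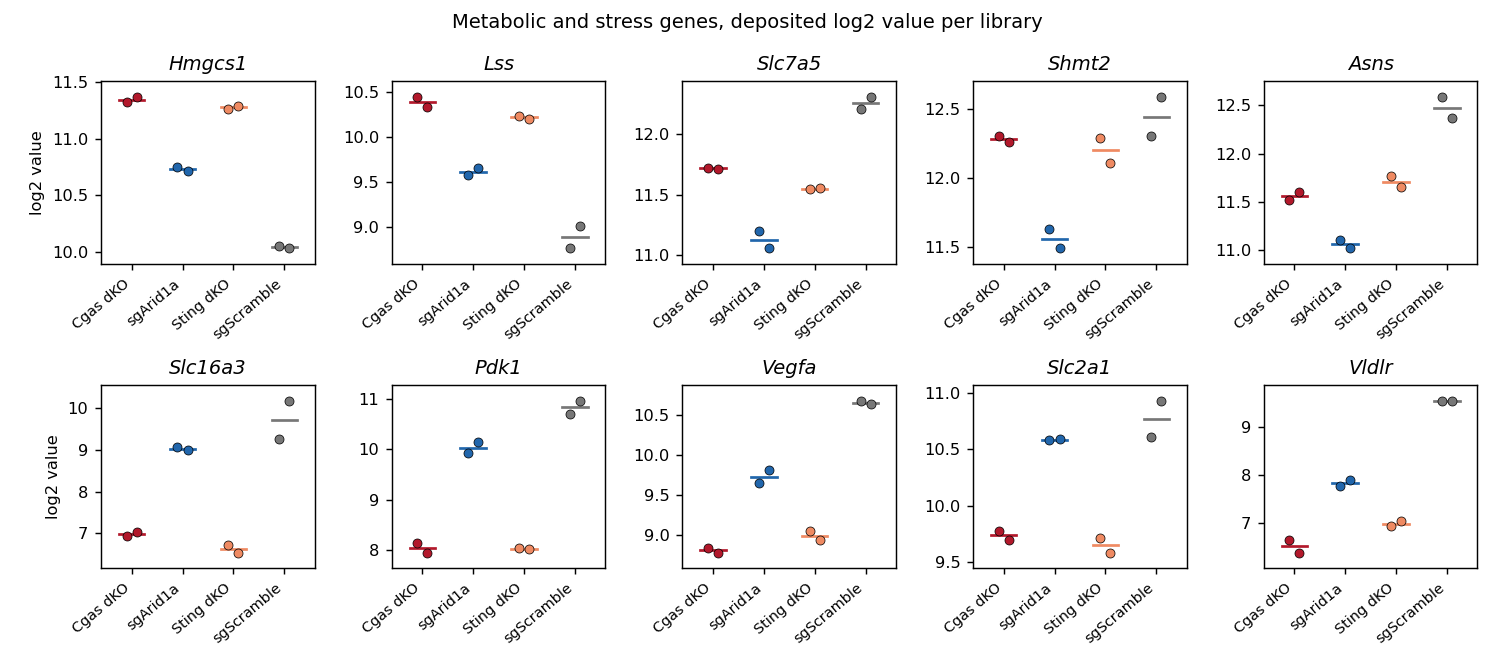
Deposited log2 value of 10 metabolic and stress genes in each library (points, 2 per group) with the group mean (line), for the groups labelled Cgas dKO, sgArid1a, Sting dKO and sgScramble; each panel has its own axis, which does not start at 0. The upper 5 genes are higher with the Cgas dKO label than with the sgArid1a label and the lower 5 are lower, with Slc16a3 at -2.04.

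Elements known for these pathways were searched in the same promoter windows, on both strands. The sterol element TCACNCCAC was found in 1 of 18 windows of the cholesterol list (5.56%), against 0.931% of all tested windows, and the gene was Hmgcs1. The C/EBP-ATF element TGATGNAA was found in 6 of 27 windows of the serine and amino acid list (22.2%) and in 6 of 16 of the stress response list (37.5%), against 1.83% of all. In the stress response list it occurred in genes that rose (Asns, Nupr1), in a gene that fell (Vldlr) and in 3 that were not called. The windows of 3 genes are shown, with each match in capitals. Slc7a11, the cystine importer, rose by 0.36.
Hmgcs1 chr13:119690201-119690350 (plus strand): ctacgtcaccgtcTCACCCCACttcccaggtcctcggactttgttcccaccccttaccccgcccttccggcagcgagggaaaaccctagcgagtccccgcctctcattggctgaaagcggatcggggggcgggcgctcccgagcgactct
Asns chr6:7693210-7693359 (minus strand): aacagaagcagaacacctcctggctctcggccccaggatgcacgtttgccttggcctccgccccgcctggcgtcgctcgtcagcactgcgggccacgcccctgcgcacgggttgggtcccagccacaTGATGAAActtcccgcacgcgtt
Slc7a11 chr3:50443614-50443763 (minus strand): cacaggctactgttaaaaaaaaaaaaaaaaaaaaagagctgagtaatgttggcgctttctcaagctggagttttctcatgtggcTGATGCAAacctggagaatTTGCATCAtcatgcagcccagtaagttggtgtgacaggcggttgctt

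Pigment cell genes held the largest single rise and did not move as a group. Of 24 tested, 5 rose and 4 fell, and 4 rose and 5 fell with the length trend removed. In the fits without a library 4 rose and 2 or 3 fell. The median was -0.11 as deposited and 0.09 after quantile normalization. Trpm1 (melastatin), a cation channel of melanocytes on chromosome 7, had 10.27 and 10.31 with the Cgas dKO label and 7.78 and 7.93 with the sgArid1a label, and 10.08 and 10.16 in sgScramble libraries. It rose by 2.43 ± 0.10 (n = 2 per group, limma adjusted p = 5.31e-10) and did not differ from sgScramble beyond the test (0.17, adjusted p = 0.183). Tyr, tyrosinase, which starts melanin synthesis, had 12.51 and 12.58 with the Cgas dKO label and 11.41 and 11.56 with the sgArid1a label, a rise of 1.06 ± 0.09 (adjusted p = 1.72e-06). Oca2, a melanosome ion transporter, rose by 0.95 ± 0.11 (adjusted p = 1.67e-05). Kcnj13, a potassium channel, had 5.78 and 5.48 with the Cgas dKO label and 6.88 and 7.08 with the sgArid1a label, and fell by 1.35 ± 0.14 (adjusted p = 1.17e-05); sgScramble libraries had 5.93 and 5.53. Mc1r, the melanocortin receptor, fell by 0.53. Mitf, the lineage's master transcription factor, differed by -0.13 (adjusted p = 0.326) and Tyrp1 by 0.00 (adjusted p = 0.989). An E-box-like element, TCANGTG with any base at N, was found in 8 of 16 windows of the list (50%), against 10.7% of all tested windows. Among the genes with a window it was in 4 of 4 that fell, 1 of 4 that rose and 3 of 8 that were not called. A riser and a faller are shown, with the match in capitals.
Tyr chr7:87493513-87493662 (minus strand): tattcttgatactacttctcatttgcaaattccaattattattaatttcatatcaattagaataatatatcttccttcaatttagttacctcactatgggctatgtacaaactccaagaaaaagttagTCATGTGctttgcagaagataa
Kcnj13 chr1:87394730-87394879 (minus strand): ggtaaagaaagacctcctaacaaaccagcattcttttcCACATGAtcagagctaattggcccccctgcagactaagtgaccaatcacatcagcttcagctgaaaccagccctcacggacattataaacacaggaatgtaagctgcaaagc

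Among genes of R-loop removal and DNA repair, which have long transcripts, a minority rose. Of 34 tested, with a median length of 4581 bases, 11 rose and 0 fell (median 0.23); with the length trend removed 7 rose and 0 fell (median 0.12). The count of risers was 3 without Cgas dKO replicate 1, 4 without Cgas dKO replicate 2, 6 without sgArid1a replicate 1 and 3 without sgArid1a replicate 2. Brca2, a mediator of homologous recombination, had 9.47 and 9.46 with the Cgas dKO label and 8.72 and 8.53 with the sgArid1a label, a rise of 0.84 ± 0.12 (n = 2 per group, limma adjusted p = 0.000146; 0.00206 with the length trend removed). Fanca, of the Fanconi complex, rose by 0.65 ± 0.10 (adjusted p = 0.000458). Rnaseh1, which digests the RNA of R-loops, differed by 0.05 (adjusted p = 0.831).

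Chromatin, p53 and cell cycle genes changed in smaller numbers, beside a background of 13.1% higher and 11.5% lower. Of 23 SWI/SNF subunits, 6 rose and 2 fell (median 0.21), and 5 rose and 5 fell with the length trend removed. The calls of Arid1b (0.37), the paralog of Arid1a, and of Pbrm1 (0.42), the polybromo subunit, ended with the length trend removed, and the fit without sgArid1a replicate 2 called 0 members. Among 21 p53 targets, 5 rose and 0 fell (median 0.12), led by Mdm2, the ligase that degrades p53, at 0.69 ± 0.13 (n = 2 per group, limma adjusted p = 0.00125), and 2 or 3 rose without any 1 library. With the length trend removed 3 of the p53 targets rose and 1 fell. Cdkn1a (p21) differed by 0.14 (adjusted p = 0.352). In the cell cycle list 6 of 34 rose and 4 fell, with a median of 0.01, 2 to 6 were called without any 1 library, and 6 rose and 5 fell with the length trend removed. Ccnd1, cyclin D1, rose by 0.52 ± 0.10 (adjusted p = 0.00131), Tk1, thymidine kinase, fell by 0.51 ± 0.10 (adjusted p = 0.00175), and the proliferation marker Mki67 differed by -0.06 (adjusted p = 0.765).

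Organelle and matrix genes completed the lists. The background over all genes with under 20% shared was 13.1% higher and 11.5% lower. Endoplasmic reticulum chaperones gave 3 higher and 6 lower genes of 26 (median -0.07), 1 to 4 called genes without any 1 library, and 3 higher and 5 lower with the length trend removed, with Atf6, a sensor of unfolded proteins, higher by 0.55 and Xbp1, the factor of another sensing branch, lower by 0.34. Lysosome and autophagy genes gave 1 higher and 4 lower of 31, 2 or 3 called genes without any 1 library, and 2 higher and 6 lower with the length trend removed, the riser as deposited being Sqstm1 (p62), an autophagy receptor, by 0.51 ± 0.10 (n = 2 per group, limma adjusted p = 0.00171). Respiratory chain genes, with short transcripts (median 1063 bases), gave 0 higher and 14 lower of 35 (median -0.23), and 2 higher and 10 lower (median -0.09) with the length trend removed. Of them 7 fell without Cgas dKO replicate 1 and 8 without sgArid1a replicate 2. Cox7b, a subunit of complex IV, fell by 1.71 ± 0.12 (adjusted p = 1.96e-07), with 7.11% of its 31-mers shared. Of 23 matrix and mesenchymal genes, 6 rose and 3 fell, with 3 to 5 called without any 1 library and 5 higher and 7 lower with the length trend removed. Thbs1, thrombospondin, had 7.97 and 8.06 with the Cgas dKO label and 7.12 and 7.16 with the sgArid1a label, a rise of 0.88 ± 0.11 (adjusted p = 4.02e-05), and the collagen gene Col1a2 rose by 0.84. Serpine2, a protease inhibitor, fell by 0.77, and Pdgfra, a growth factor receptor of fibroblasts, fell by 0.87 ± 0.14 (adjusted p = 0.000359).

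The 12 largest rises among genes with under 20% shared were those of Trpm1, Mir6236, Malat1, Kcnq1ot1, Tinagl1, Kmt2d, Neat1, Mbp, Lrp8, Mest, Osgin1 and Cyfip2. Malat1, a nuclear long noncoding RNA, had 12.66 and 12.29 with the Cgas dKO label and 11.13 and 10.80 with the sgArid1a label, a rise of 1.51 ± 0.15 (n = 2 per group, limma adjusted p = 4.91e-06). Neat1, the RNA scaffold of paraspeckles, rose by 1.35 and Kcnq1ot1, an imprinted antisense RNA listed at 83436 bases, by 1.47; with the length trend removed these were 0.84 and 0.54. Kmt2d, a histone methyltransferase of enhancers, had 11.50 and 11.05 with the Cgas dKO label and 10.07 and 9.76 with the sgArid1a label, a rise of 1.36 ± 0.18 (adjusted p = 7.17e-05), or 0.86 with the length trend removed. Mbp, myelin basic protein, had 10.09 and 10.10 with the Cgas dKO label, against 8.73 and 8.84 with the sgArid1a label and 10.01 and 10.24 in sgScramble libraries. Its rise was 1.31 ± 0.10 (adjusted p = 4.01e-07), and it did not pass the test against sgScramble (-0.03, adjusted p = 0.832). Cyfip2, a regulator of the actin-nucleating WAVE complex, rose by 1.13 and Lrp8, a reelin receptor, by 1.21.

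The 12 largest falls were mostly of genes just under the line of 20% shared. Zbed5, Ube2v1, Atp5g1, Nhp2l1, Higd1a, Ptp4a1 and Rbm3, with 9.54 to 18.9% shared, had differences of -3.41 to -2.34. Ube2v1, a partner of the ubiquitin-conjugating enzyme Ube2n, had 7.15 and 7.29 with the Cgas dKO label and 10.48 and 10.48 with the sgArid1a label (18.9% shared). Falls of genes with a smaller share were those of Slc16a3, described above, Nrp (0.573% shared, -2.53), 4930506C21Rik (-2.33) and Lars2. Lars2, the mitochondrial leucine transfer RNA synthetase, had 11.37 and 11.99 with the Cgas dKO label and 13.25 and 14.07 with the sgArid1a label, with a wide spread in every group.

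The 834 tested genes with 20% or more shared stood apart: 666 (79.9%) were lower and 7 (0.839%) higher, in all 80.7%, with a median of -0.84. Gapdh, the glycolytic enzyme often used as a reference, has 79.9% of its 31-mers shared and had 6.74 and 6.21 with the Cgas dKO label, against 11.71 and 12.28 with the sgArid1a label. The libraries labelled Sting dKO had 6.93 and 6.59, and sgScramble libraries had 12.06 and 12.25. The fitted difference of Gapdh was -5.52 ± 0.19 (n = 2 per group, limma adjusted p = 1.67e-10), and in the authors' deposited table its log2 fold change is -6.97. Actg1, cytoplasmic gamma-actin (56.3% shared), had 6.60 and 6.57 with the Cgas dKO label and 12.20 and 12.04 with the sgArid1a label. Pgk1, phosphoglycerate kinase (68.3% shared), had 9.66 and 9.85 with the Cgas dKO label and 12.68 and 12.61 with the sgArid1a label. The largest difference was that of Gm5148, at -6.60, and the authors' deposited table gives it -15.68. Of 79 ribosomal protein genes, 73 were lower and 1 higher, with a median of -1.62, and 6 of the 79 had under 20% shared. Within the interferon lists the class I heavy chain H2-K1 (22.5% shared, -2.19), Ifit3 (61.8%, -1.24) and Oas1a (68.8%, -1.08) belong to this class. The Cgas dKO libraries also differed from sgScramble in this class: with over 50% shared the median was -1.34, and 89.9% of genes were lower. Reads of such genes can be assigned to a near-identical copy, so their values are uncertain. The share of each fall that belongs to the gene itself was not tested. A difference in library handling between the groups was not tested, for this class or for the lists above.

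A direct test against the libraries labelled Sting dKO, in which the adaptor downstream of Cgas is targeted (Tmem173 had 9.04 and 8.87 there), called 4 of 11604 genes (0.0345%), 3 higher (0.0259%) and 1 lower (0.00862%). At an unadjusted p under 0.05 there were 900 genes, and 242 genes pass the adjusted p of the authors' deposited table. Trpm1 had 10.27 and 10.31 with the Cgas dKO label and 9.48 and 9.45 with the Sting dKO label, and was higher by 0.82 ± 0.10 (n = 2 per group, limma adjusted p = 0.0065). Mgll, monoacylglycerol lipase, had 8.82 and 8.87 with the Cgas dKO label and 8.05 and 7.97 with the Sting dKO label, and was higher by 0.84 ± 0.11 (adjusted p = 0.0167). Scel (sciellin), a protein of the cornified envelope, was lower by 2.21 ± 0.09 (adjusted p = 5.66e-08). It had 3.66 and 3.66 with the Cgas dKO label and 5.77 and 5.96 with the Sting dKO label. The sgArid1a and sgScramble libraries were at 3.64 to 3.88. Scel thus reached the average of 4 only through the Sting dKO libraries, so its call is no independent support for a difference. With an average of at least 6 required, 3 genes were higher and 0 lower. Rpl39, a ribosomal protein gene with 21.8% shared, was higher by 1.22 ± 0.16 (adjusted p = 0.0156). The 4 calls became 2 without Cgas dKO replicate 1, 1 without Cgas dKO replicate 2, and 5 or 1 without one or the other Sting dKO library. All 3 higher calls ended without Cgas dKO replicate 2 and without 1 of the Sting dKO libraries, where 0 genes were higher and 1 was lower. Of the lists, only the pigment cell list (1 gene, Trpm1) and the ribosomal protein list (1 gene, Rpl39) held a call. No gene of the interferon lists was called, and a p that misses the threshold does not show that the groups were alike. Ifit1 differed by 0.04 ± 0.12 between them and Irgm1 had 9.22 and 9.29 with the Cgas dKO label and 9.38 and 9.46 with the Sting dKO label. Both sets of libraries are compared with the same sgArid1a libraries above, so their differences from sgArid1a are not independent of each other.

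**Figure D5:**
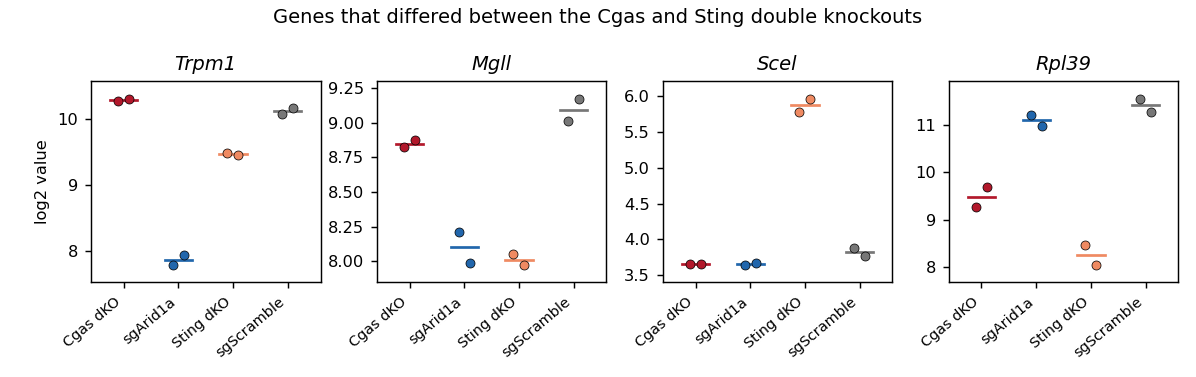
Deposited log2 value of the 4 genes called between the libraries labelled Cgas dKO and Sting dKO, per library (points, 2 per group) with the group mean (line), beside sgArid1a and sgScramble; each panel has its own axis, which does not start at 0. Scel is highest in the 2 Sting dKO libraries (5.77 and 5.96), and Trpm1 is higher in the Cgas dKO than in the Sting dKO libraries by 0.82. Scel averages 4 or more over the 8 libraries only through the Sting dKO libraries.

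Against sgScramble, which carries neither guide, 4826 of 11604 genes (41.6%) differed. Of genes with under 20% shared, 2257 (21.1%) were higher and 1890 (17.6%) lower with the Cgas dKO label, and the total over all tested genes was 2782 without Cgas dKO replicate 1. Of the 38 type I interferon-stimulated genes, 5 were higher and 3 lower than in sgScramble, with a median of 0.06, and of the 8 interferon-gamma-leaning genes 4 were higher and 0 lower (median 0.35). Parp14 had 7.77 and 7.74 with the Cgas dKO label and 7.12 and 7.15 in sgScramble, a difference of 0.62 (n = 2 per group, limma adjusted p = 0.000748). Ddx58 was higher than in sgScramble by 0.34 (adjusted p = 0.0197). Ifit1, by contrast, was lower than in sgScramble by 0.31 (adjusted p = 0.0491). Of the 28 glycolysis and hypoxia genes 1 was higher and 20 were lower (median -0.90). Of the 34 repair genes, with a median length of 4581 bases, 23 were higher and 0 lower (median 0.31). Among genes with under 5% shared, the median against sgScramble was -0.20 for transcripts up to 1 kb and 0.15 for those over 5 kb. The list counts given against sgScramble keep that length trend.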

How the data were processed

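PolyA RNA of untreated B16F10 cells was sequenced in 8 libraries of 4 groups, 2 libraries per group. Alignment used STAR 2.5.3a and the mm10 build (GRCm38), and HOMER did the counting, per the submitters' processing notes and the file headers, which name no strand option, so overlapping and antisense genes cannot be told apart. The log2 values deposited by the authors are normalized, with low values drawn together, so that changes of low genes are understated; no pseudocount is stated. The p-values and log2 fold changes of the authors' deposited table come from edgeR run through HOMER, per the file headers, and are used only where named. The tests here used the deposited log2 values: limma 3.58.1 with a trend in R 4.3.3, all 4 groups in one fit (4 residual degrees of freedom), genes whose log2 values average 4 or more, and Benjamini-Hochberg adjusted p-values over all tested genes with a threshold of 0.05. The script was tested on simulated data. The share of 31-mers at another locus came from GENCODE vM21 transcripts, and the length trend was removed by loess (span 0.5), a repeat chosen after seeing the data. Promoter windows of 250 bases from RefSeq GRCm38.p6 were matched for 9026 of 11604 tested genes; figures used Python 3.11.15 and matplotlib 3.10.9. Genes named are the targeted genes, the 12 largest rises and falls among genes averaging 5 or more, the leading called genes of each list, a panel of interferon genes and genes that differ between the double knockouts; the other list members named, and Hif1a, were chosen after their values were seen. The members and the gene lists were chosen with earlier results of these data known. Library totals of 8.68 to 22.8 M reads come from the file headers. Alternatives were other filters and scalings, a fit of the compared groups only, a replicate block, leaving out each library, limma without a trend, and leaving out genes by shared 31-mers. Replicate numbers are shared by the Cgas dKO, sgArid1a and sgScramble libraries, and the Sting dKO columns carry none. Some genes are not reported here.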

Additional observations from a re-analysis of the deposited data

Results flagged for a closer look

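The direct difference between the libraries labelled Cgas dKO and Sting dKO passed the limma test for 4 genes, relative to the spread between these libraries. All 3 higher calls ended without Cgas dKO replicate 2 and without 1 of the Sting dKO libraries, and Rpl39, with 21.8% of its 31-mers shared, is uncertain. Trpm1 differed by 0.82, Mgll by 0.84 and Rpl39 by 1.22 on the log2 scale, each higher with the Cgas dKO label, and Scel by -2.21, lower with the Cgas dKO label. In Scel the Sting dKO libraries stood apart from the other groups, with 5.77 and 5.96. Values were 3.66 and 3.66 with the Cgas dKO label, 3.64 and 3.67 with the sgArid1a label and 3.88 and 3.77 in sgScramble. Scel entered the test only through the Sting dKO libraries. Mgll was at 8.82 and 8.87 with the Cgas dKO label and 8.05 and 7.97 with the Sting dKO label, while sgArid1a libraries had 8.21 and 7.99.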

How the results depend on the processing

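Between the libraries labelled Cgas dKO and sgArid1a, the 3329 called genes became 5143 with only the compared groups in the fit, 5113 by the authors' deposited table, 2030 without genes of 5% or more shared 31-mers, 1733 with the length trend removed as well, and 1464 to 2134 without 1 library. Between Cgas dKO and Sting dKO, the 4 calls became 47 with only those groups, 242 by the authors' deposited table and 1 to 5 without 1 library. Between Cgas dKO and sgScramble, the 4826 calls became 2782 to 5449 without 1 library. The causes were not tested. With the replicate number as a replicate block and the Sting dKO libraries left out, 2456 genes were called against sgArid1a and 4035 against sgScramble. Over genes, the differences between replicates 1 and 2 correlated at r = 0.14, -0.12 and -0.38 for the 3 pairs of groups. Each group gives 1 such difference per gene, so these values cannot settle whether same-numbered libraries were handled together. No paired analysis was possible between Cgas dKO and Sting dKO because the Sting dKO columns carry no replicate number. Of the 121 named genes called, 101 to 106 kept their call without 1 library, 115 under quantile normalization and 112 with the length trend removed, and 0 turned direction in these fits. With 2 libraries per group, small differences were not detectable.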

Other observations

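Of 7 genes chosen after their values were seen, and so no test of a group, 5 were higher with the Cgas dKO label and 2 did not pass the test. Gclm, a subunit of the enzyme that starts glutathione synthesis, had 9.68 and 9.67 with the Cgas dKO label and 8.75 and 8.73 with the sgArid1a label, a rise of 0.94 (limma adjusted p = 2.7e-05). Txnrd1, thioredoxin reductase, rose by 0.91, Hmox1, heme oxygenase, by 0.89, Srxn1, sulfiredoxin, by 0.84 and Gclc by 0.69. Nqo1 differed by 0.27 (adjusted p = 0.118) and Nfe2l2, which encodes the transcription factor NRF2, by 0.10 (adjusted p = 0.408), and neither passed the test. Against the Sting dKO libraries none of these 7 genes passed the test, with adjusted p-values from 0.564 (Hmox1) to 0.936 (Txnrd1).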
